A study of Homo sapiens with 17 samples.

Results

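HERVH is a family of human endogenous retroviruses whose copies hold a HERVH-int internal region between LTR7-type long terminal repeats (LTRs), and its transcription was followed here locus by locus through oncogene-induced senescence and SMARCA4 knockdown. Members were the repeat rows of class LTR/ERV1 that were annotated as HERVH-int, LTR7, LTR7A, LTR7B, LTR7C or LTR7Y. They numbered 5292 of 4748242 repeat rows: 1629 HERVH-int, 2401 LTR7, 774 LTR7B, 308 LTR7C, 180 LTR7Y and 0 LTR7A. The RNA came from IMR90 ER:RAS cells, a human lung fibroblast line infected with a retrovirus for a RAS oncoprotein fused to an oestrogen receptor domain, which 4-hydroxytamoxifen (4OHT) switches on to drive senescence. All groups carried this construct and were reverse transfected with siRNA a day ahead of treatment, and RNA was taken on day 7. They were DMSO with non-targeting siRNA (DMSO siNT, n = 5), 4OHT with the same siRNA (4OHT siNT, n = 6) and 4OHT with siRNA to SMARCA4, an ATPase of the SWI/SNF chromatin remodeler (4OHT siSMARCA4, n = 6). The labels number the siRNAs 2 and 4 in both kinds, siNT 2 and siNT 4 or siSMARCA4_2 and siSMARCA4_4, and each group pools both numbers, which open the library names used here (2-1VM, 4-2V). SMARCA4 was not knocked down in DMSO.

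HERVH belongs to the gammaretrovirus-like endogenous retroviruses, and its letter H comes from the histidine transfer RNA that matches its primer binding site. A complete copy reads LTR, internal region, LTR, and recombination between the LTRs leaves a solitary LTR. The LTR acts as promoter in its U3 part and as polyadenylation signal in its R part. LTR7 promoters are best known from human pluripotent stem cells, where HERVH transcripts are abundant and factors such as OCT4, NANOG and KLF4 bind the LTR. In most differentiated cells the copies are held silent by DNA methylation and by repressive histone marks that KRAB zinc finger proteins recruit through TRIM28.

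The results turned on 3 copies, on chromosomes 1, 12 and 9. Aligned over 434 bp, the LTRs of the chromosome 1 copy were 97.5% identical, and those of the chromosome 12 copy were 95.9% identical over 412 bp. The internal region of the chromosome 1 copy had no open reading frame longer than 228 codons.

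Of the 5292 member rows, 1577 had a count in at least 1 library and 216 had 10 or more over all 17 libraries. Only 21 rows, in 16 insertions, passed the expression filter that precedes a test, and the other 5271 have no test of their own. The 21 tested rows held 85.3% of the 58553 counts assigned to members. Joining rows less than 1000 bp apart gave 2560 insertions, of which 1230 had an internal region with an LTR, 38 an internal region alone and 1292 an LTR alone. The insertions with both parts took 92.5% of member counts. By place, 2960 member rows lay outside genes, 1897 in introns and 435 in exons, and the rows outside genes took 73.7% of the counts, or 43133, of which 36910 were on the 3 rows of 1 provirus on chromosome 1 and 6223 on all others. Introns held 1294 rows antisense to the gene and 415 in its sense, with 10694 counts on sense rows and 1555 on antisense rows. Of the sense counts, 7039 were on LTR7 12:76297373, 1653 on HERVH-int 9:21487737 and 651 on LTR7 9:21487324, and without these 3 rows the sense rows held fewer counts than the antisense rows.

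The libraries held 39.1 to 69.0 M counts each (M, 1e6), between 723 and 8729 of them on members, so that most copies were counted rarely or not at all. SMARCA4 itself averaged 262 ± 15.5 CPM (counts per 1e6 counts, scaled by TMM; SD, n = 6) in 4OHT siNT and 86.5 ± 22.1 CPM (n = 6) in 4OHT siSMARCA4, a log2 change of -1.60 (SE 0.13, edgeR adjusted p 2.67e-07). Library names end in V or VM, tags that the labels do not explain. The 4OHT siNT group consisted of 6 VM libraries, the siSMARCA4 group of 3 V and 3 VM, and the DMSO group of 2 V and 3 VM. DMSO 2-2V and 2-2VM, siSMARCA4 2-3V and 2-3VM, and siSMARCA4 4-2V and 4-2VM differ in name by the tag alone. They were treated as separate libraries. The V libraries of siSMARCA4 kept 80.4 to 125 CPM of SMARCA4 and its VM libraries 68.0 to 77.6 CPM. Most knockdown results of named rows and subfamilies are therefore also given for VM libraries only, while genes were compared over all libraries. Summed counts of 40690 repeat loci that had at most 20 counts each and lay over 50000 bp from any gene were 35.7 to 68.6 CPM in 4OHT siNT, 47.4 to 118 CPM in DMSO and 70.3 to 198 CPM in siSMARCA4, where every library was above those of 4OHT siNT. Nothing in the labels says that libraries came from separate cultures, so p-values measure the spread between libraries.

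The sum over all members rose in senescence and differed between libraries of the knockdown. It was 14.8 to 18.2 CPM in the DMSO libraries, 69.0 to 109 CPM in 4OHT siNT and 51.2 to 126 CPM in 4OHT siSMARCA4. The 4OHT siNT libraries all lay above DMSO, and those of siSMARCA4 overlapped them. The means were 16.3 ± 1.56 (SD, n = 5), 88.4 ± 14.99 (n = 6) and 78.9 ± 29.7 CPM (n = 6). The log2 difference of 4OHT from DMSO was 2.43 (exact permutation p 0.00216, 2-sided, the smallest that 6 against 5 libraries can give; 0.00433 adjusted over the 2 contrasts). The difference of siSMARCA4 from siNT was -0.22 (exact permutation p 0.346, the same after adjustment). It was -0.38 without the siSMARCA4 library 4-2V (exact permutation p 0.0887), -0.12 without 4-2VM (exact permutation p 0.615) and -0.45 as a share of all repeat counts (exact permutation p 0.0541). With VM libraries only it was -0.63 (exact permutation p 0.0119, the smallest that 3 against 6 libraries can give), and without the most counted row the sign turned, to 0.10 (exact permutation p 0.390). In bulk RNA a change in the share of cells that transcribe a copy and a change in RNA per cell cannot be told apart.

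**Figure D1:**
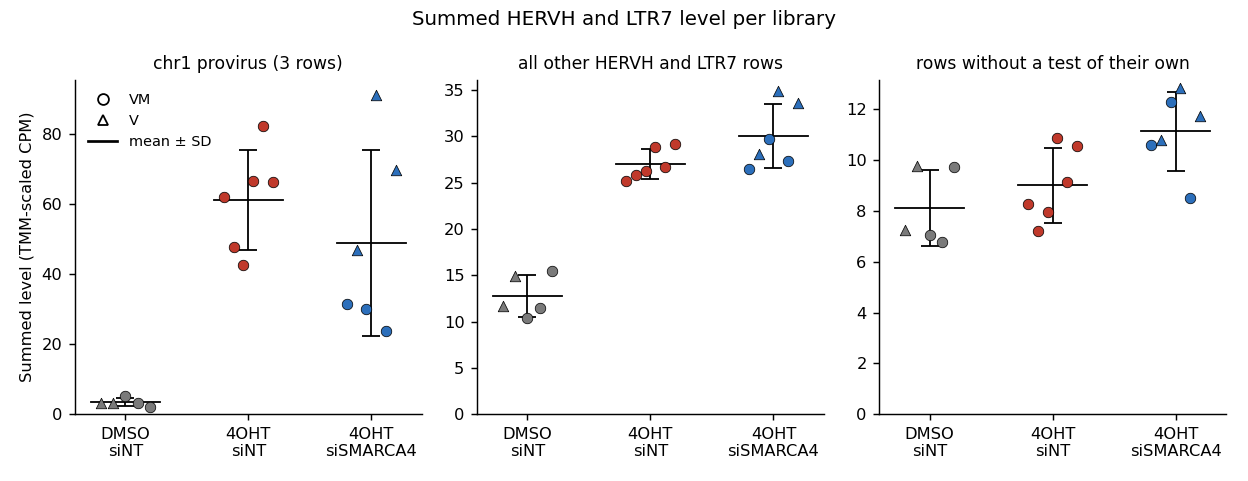
Summed level per library in TMM-scaled CPM for the 3 rows of the chromosome 1 provirus, for all other HERVH and LTR7 rows and for the 5271 rows without a test of their own, in the 3 groups. Circles are VM libraries, triangles V libraries and bars the mean and SD; the provirus averaged 3.47, 61.4 and 48.9 CPM in DMSO siNT, 4OHT siNT and 4OHT siSMARCA4, and the siSMARCA4 VM libraries stood at 23.8 to 31.5 CPM there, below its V libraries at 47.1 to 91.2 CPM.

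A single insertion carried most of this signal. The provirus at GRCh38 1:68386004-68391992, on the plus strand and outside annotated genes, took 63.0% of all member counts, and its internal region alone 53.2%. It made up 21.4% of member counts in DMSO, 69.7% in 4OHT siNT and 62.9% in 4OHT siSMARCA4. Without it the sum was still higher in senescence, at 12.8 ± 2.27 CPM in DMSO (SD, n = 5) and 27.0 ± 1.63 CPM in 4OHT siNT (n = 6), a log2 difference of 1.09 (exact permutation p 0.00216, the smallest possible). Much of that rise was on the copies on chromosomes 12 and 9, both inside genes. The chromosome 12 copy averaged 2.56 CPM in DMSO and 10.3 CPM in 4OHT siNT, and the chromosome 9 copy 0.645 and 3.96 CPM. The 5271 rows without a test summed to 8.10 ± 1.49 CPM in DMSO and 8.99 ± 1.47 CPM in 4OHT siNT, a log2 difference of 0.15. Rows came to be tested partly through counts that senescence raised, so the small difference over the rows without a test is a description.

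Senescence was compared first, 4OHT siNT against DMSO siNT. By edgeR with adjustment over 13026 repeat loci, 16 of the 21 tested rows were higher and 1 was lower, where 18.1% of all tested repeat loci were higher and 9.33% lower. A row with few DMSO counts could pass the filter only through the 4OHT libraries, so these 21 had to lean towards a rise and their count is a description. The same holds for the p-value and separation of each such row. Their median log2 change was 2.62, beside 0.16 over all tested loci. In 15 of the 21 every 4OHT siNT library lay above every DMSO library, which held for 11.9% of tested loci (5.90% in the other direction), and the same lean applies to this count. Other LTR/ERV1 loci were higher in 92 and lower in 63 of 444, LTR/ERVK loci in 19 and 15 of 107, and LTR/ERVL loci in 64 and 22 of 272.

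**Figure D2:**
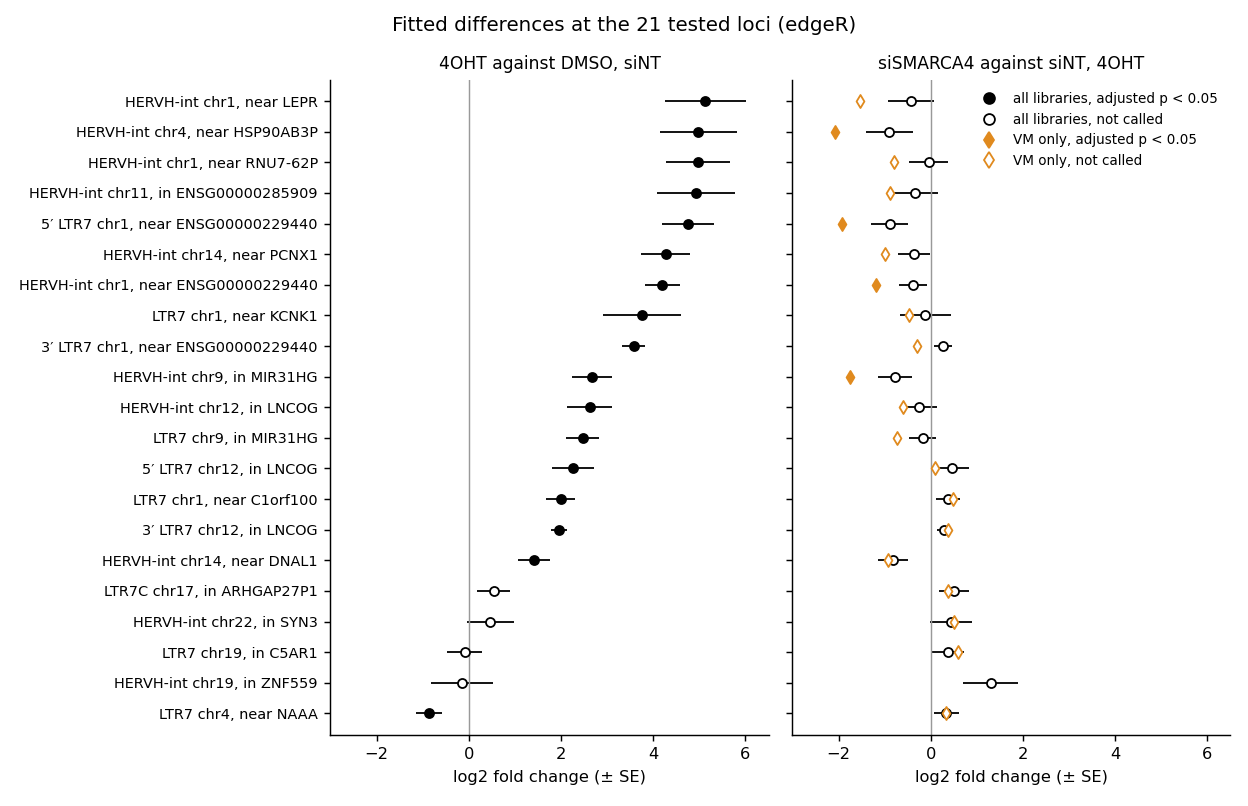
Fitted log2 fold changes of the 21 tested rows with SE as bars, for 4OHT against DMSO on the left and siSMARCA4 against siNT on the right, ordered by the left panel. Filled circles passed an adjusted p of 0.05 over all libraries and orange diamonds are the fit on VM libraries only, filled where called; the left panel runs from -0.86 at the LTR near NAAA to 5.13 at the row near LEPR, and the right panel has 0 filled circles and 4 filled diamonds.

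The internal region of the chromosome 1 provirus (HERVH-int 1:68386440-68391562) was the most abundant member. It measured 2.77, 2.77, 4.57, 2.81 and 1.45 CPM in the 5 DMSO libraries and 36.4, 55.0 and 72.0 CPM as lowest, median and highest of 4OHT siNT. All 4OHT libraries were far above all DMSO libraries. The means were 2.88 ± 1.11 (SD, n = 5) and 52.7 ± 13.0 CPM (n = 6), a log2 change of 4.20 (SE 0.38, edgeR adjusted p 1.39e-07).

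Its LTRs rose with it. The LTR ahead of the internal region (LTR7 1:68386004-68386437) had 0.111, 0.0410, 0.107, 0.164 and 0.0884 CPM in DMSO and 0.962, 3.10 and 4.06 CPM as lowest, median and highest of 4OHT siNT. The groups did not overlap, and the log2 change was 4.75 (SE 0.56, edgeR adjusted p 3.50e-06). With few DMSO counts this row passed the filter through the 4OHT libraries alone, so its rise is a description. The LTR behind it (LTR7 1:68391563-68391992) had 0.462, 0.451, 0.516, 0.390 and 0.619 CPM in DMSO and 4.76, 6.08 and 6.47 CPM in 4OHT siNT. These libraries were also fully apart, with a log2 change of 3.57 (SE 0.24, edgeR adjusted p 4.15e-09).

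Per length, the LTR ahead had 6.46 CPM per kb in 4OHT siNT, the internal region 10.3 and the LTR behind 13.6. Counting was shared among copies: 49.2% of the 110-bp stretches of the LTR ahead and 41.1% of the LTR behind were also in another insertion, against 19.0% for the internal region, so the LTR values are the less certain. Stretches shared only between the LTRs of this provirus, which were 97.5% identical, are not in these percentages. The counts around the provirus fell away on both sides. A MER41B element, an LTR of another ERV1 family that lies at -1016 to -380 bp from its start, averaged 0.0717 CPM in DMSO and 0.967 CPM in 4OHT siNT, a log2 change of 3.71 (SE 0.40, edgeR adjusted p 1.20e-06). Behind the provirus an LTR17 at 6094 to 6785 bp from its start averaged 0.0709 CPM and an L2a from 7840 bp on 0.105 CPM in 4OHT siNT. These neighbours were chosen after their values were seen. With few DMSO counts the MER41B row also needed the 4OHT libraries to pass the filter, so its rise is a description.

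**Figure D3:**
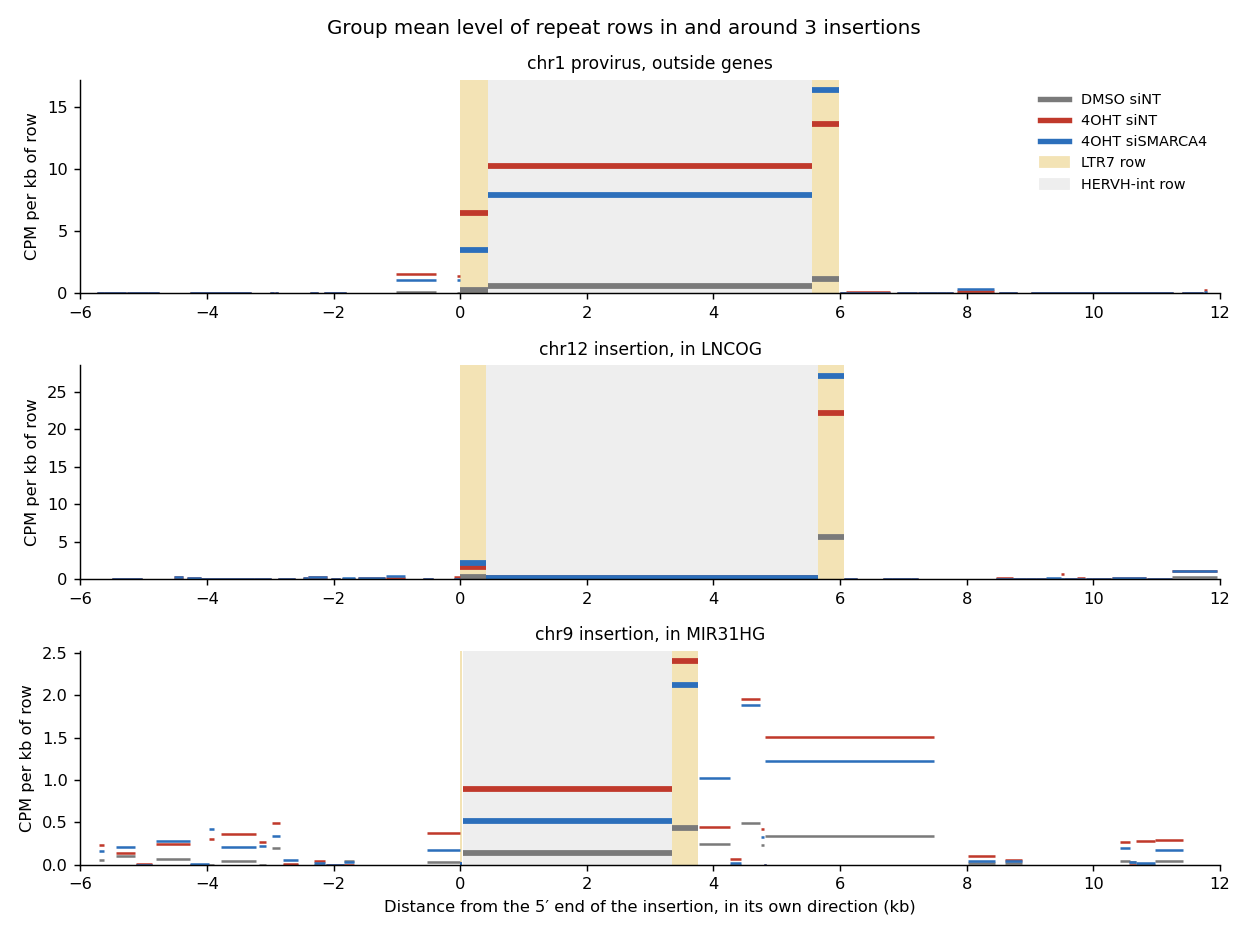
Group mean CPM per kb of each repeat row in and around 3 insertions, by distance in kb from the 5′ end of the insertion in its own direction, with LTR7 rows shaded yellow and HERVH-int rows grey. In 4OHT siNT the chromosome 1 provirus has 6.46, 10.3 and 13.6 CPM per kb across LTR, internal region and LTR, the chromosome 12 copy in LNCOG has 22.1 CPM per kb on the LTR behind its internal region, and at the chromosome 9 copy the surrounding rows of MIR31HG carry counts too.

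The copy on chromosome 12 (12:76291720-76297783) lay in the sense of LNCOG, a long noncoding RNA gene, and was counted almost only at the LTR behind its internal region. That LTR (LTR7 12:76297373-76297783) was the second most abundant member, with 2.61, 2.01, 1.51, 2.48 and 3.04 CPM in DMSO and 6.78, 8.89 and 11.1 CPM as lowest, median and highest of 4OHT siNT. The groups were separate, and the log2 change was 1.96 (SE 0.17, edgeR adjusted p 1.14e-07). In 4OHT siNT it had 22.1 CPM per kb, while the internal region ahead of it had 0.110 CPM per kb. The LTR behind lay in an intron of LNCOG, whereas the internal region and the LTR ahead overlapped its exons. How read pairs were divided between LNCOG and the rows over its exons was not tested, so these levels need not show where transcription lay. The internal region (HERVH-int 12:76292129-76297372) rose from 0.0928 ± 0.0625 CPM (SD, n = 5) to 0.575 ± 0.171 CPM (n = 6), a log2 change of 2.62 (SE 0.48, edgeR adjusted p 0.000390). The other LTR (LTR7 12:76291720-76292127) rose from 0.134 ± 0.138 to 0.655 ± 0.108 CPM, by 2.26 (log2, SE 0.45, edgeR adjusted p 0.000823). The internal region and this LTR needed the 4OHT libraries to pass the filter, so their rises are a description. LNCOG itself averaged 8.61 ± 1.32 CPM in DMSO and 26.6 ± 3.15 CPM in 4OHT siNT, a log2 change of 1.63 (SE 0.13, edgeR adjusted p 1.89e-09). Host and LTR thus rose together.

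The copy on chromosome 9 lay in an intron of MIR31HG, the host gene of microRNA-31, also in its sense. Its internal region (HERVH-int 9:21487737-21491044) had 0.296, 0.860, 0.498, 0.328 and 0.354 CPM in DMSO and 1.92, 3.18 and 3.82 CPM as lowest, median and highest of 4OHT siNT. No library of one group reached the other, and the log2 change was 2.67 (SE 0.44, edgeR adjusted p 0.000126). Its LTR (LTR7 9:21487324-21487736) went from 0.178 ± 0.101 CPM (SD, n = 5) to 0.992 ± 0.201 CPM (n = 6), a log2 change of 2.47 (SE 0.35, edgeR adjusted p 3.04e-05). This LTR needed the 4OHT libraries to pass the filter, so its rise is a description. Repeats around the copy in the same gene rose with it, among them an L1ME4b at 4808 to 7488 bp from its 5′ end, chosen after its values were seen, which went from 0.920 to 4.06 CPM (log2 2.14, SE 0.29). MIR31HG went from 15.9 ± 5.63 to 37.7 ± 7.52 CPM, by 1.24 (log2, SE 0.26, edgeR adjusted p 0.000481).

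The largest fitted changes belonged to rows that were close to silent in DMSO. HERVH-int 1:65644018-65646858, 2459 bp from the leptin receptor gene LEPR, had 1 count over the 5 DMSO libraries and 66 over the 6 of 4OHT siNT, a ratio of CPM of 56.9 with a 95% exact interval of 9.87 to 2282 for counting error only. HERVH-int 4:87922255-87925995 had 2 and 97 counts, a ratio of 41.8 (11.3 to 350.3). HERVH-int 11:122829043-122832414, antisense in an intron of ENSG00000285909, had 1 and 55 counts, a ratio of 47.4 (8.17 to 1907).

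These wide intervals leave the size of each difference open within them. With 1 or 2 counts in DMSO these rows passed the filter through the 4OHT libraries alone, so their values are a description. HERVH-int 1:64350439-64350773 had 4 and 171 counts (ratio 36.9, interval 14.1 to 137), and all 6 of its 4OHT libraries, at 0.241 to 1.01 CPM, were above the DMSO maximum of 0.0615. LTR7 1:233683449-233683880 had 3 and 55 counts (ratio 15.8, interval 5.13 to 79.0). Both rows also passed the filter through the 4OHT libraries alone, so their values are a description too. Part of these counts may be shared with the chromosome 1 provirus, which holds 35.4% of the 110-bp stretches of the first of these rows and 43.3% of the second. In 4OHT siNT their counts were 1.05% and 0.337% of those of its internal region. The share was 6.99% of stretches for 1:65644018 and 0.716% for 4:87922255.

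Further copies rose at low level. Each of them needed the 4OHT libraries to pass the filter, so their values are a description. HERVH-int 14:71124617-71129598, 9235 bp from PCNX1, went from 0.0235 ± 0.0227 CPM (SD, n = 5) to 0.481 ± 0.134 CPM (n = 6), a log2 change of 4.27 (SE 0.52, edgeR adjusted p 5.42e-06). PCNX1 rose by 1.24 (log2, SE 0.16, edgeR adjusted p 2.32e-06). The solitary LTR7 1:244350717-244351134, none of whose 110-bp stretches recur in another insertion, had 0.111, 0.0410, 0.125, 0.123 and 0.159 CPM in DMSO and 0.362, 0.388 and 0.760 CPM as lowest, median and highest of 4OHT siNT. It thus rose without overlap by 2.00 (log2, SE 0.31, edgeR adjusted p 7.70e-05). HERVH-int 14:73703771-73708784, flanked by LTR7B and 39 bp from DNAL1, rose by 1.41 (log2, SE 0.35, edgeR adjusted p 0.00530), with overlapping libraries.

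Not every tested row rose. LTR7 4:75910807-75911327, 2333 bp from NAAA, was the row called lower: it had 0.573, 0.738, 0.303, 0.718 and 0.795 CPM in DMSO and 0.236, 0.315 and 0.547 CPM as lowest, median and highest of 4OHT siNT. The groups overlapped through the DMSO library 2-2VM, and the log2 change was -0.86 (SE 0.28, edgeR adjusted p 0.0275). The call was lost on leaving out any one of DMSO 2-2V, 4-2VM or 4-3VM or of 4OHT siNT 2-1VM, 4-1VM or 2-3VM (edgeR adjusted p up to 0.0729). It was also lost with VM libraries only, at -0.81 (edgeR adjusted p 0.114), with the tag as a covariate, at -0.83, and with the sparse counts as a covariate, at -0.72. NAAA, which encodes a lysosomal amidase, fell by 0.82 (log2, SE 0.10, edgeR adjusted p 1.56e-06). Of 9 genes nearest to tested rows outside genes 6 were tested, with 2 higher and 3 lower in senescence, where 22.0% of genes were higher and 32.2% lower. Their median log2 change was -0.61, beside -0.09 over all genes. NAAA and PCNX1 moved in the direction of their rows. LEPR fell by 0.62 (log2, SE 0.10, edgeR adjusted p 1.75e-05) and KCNK1, 10935 bp from LTR7 1:233683449, by 1.07 (log2, SE 0.26, edgeR adjusted p 0.00150), both beside rows that were called higher. The other 4 tested rows did not pass: LTR7C 17:64764753-64765196 changed by 0.54 (log2, SE 0.36), HERVH-int 22:32503188-32508070 by 0.47 (log2, SE 0.51), LTR7 19:47296710-47297157 in an exon of C5AR1 by -0.09 (SE 0.38) and HERVH-int 19:9364156-9366007 by -0.15 (SE 0.67) on the log2 scale.

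Tested without the expression filter, 28 of the 216 rows with 10 or more counts were higher and 4 lower, where 2.22% and 1.44% of 159643 loci were. One of the lower rows, named after its values were seen, was HERVH-int 21:16892614-16897836, with 49 counts in DMSO, 7 in 4OHT siNT and 1 in 4OHT siSMARCA4.

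The knockdown was compared next, 4OHT siSMARCA4 against 4OHT siNT. By edgeR 0 of the 21 tested rows were called, where 4.36% of tested repeat loci were higher and 1.80% lower. At an unadjusted p under 0.05 there were 1 higher and 2 lower rows, where 2115 of 13026 tested loci were higher and 866 lower. DESeq2 called 0 with 4 at that level, where 2900 loci were. No row had fully separate groups, which 3.25% of tested loci had upwards and 1.19% downwards. The median log2 change of the 21 was -0.12, beside 0.14 over all tested loci.

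The siSMARCA4 libraries were split by tag at the chromosome 1 provirus. Its internal region measured 36.8, 78.3 and 58.1 CPM in the V libraries 2-3V, 4-2V and 4-3V and 25.8, 24.3 and 19.0 CPM in the VM libraries 2-1VM, 2-3VM and 4-2VM. The VM libraries were all below the 4OHT siNT range of 36.4 to 72.0 CPM, and the V libraries were within or above it. Over all libraries the log2 difference from siNT was -0.38 (SE 0.30, edgeR adjusted p 0.481), and with VM libraries only it was -1.19 (SE 0.27, edgeR adjusted p 0.0294). Leaving out 1 library at a time gave -0.70 (without 4-2V) to -0.26 (without 4-2VM), with edgeR adjusted p from 0.125 to 0.692, and with the sparse repeat counts as a covariate the sign turned, to 0.26 (edgeR adjusted p 0.799). The sparse counts were higher in every siSMARCA4 library than in any of 4OHT siNT. That covariate can hardly be told apart from the knockdown. With the tag as a term in the fit the difference was -0.91 (SE 0.32, edgeR adjusted p 0.0963). Since 4OHT siNT has no V library, that term rests on the DMSO and siSMARCA4 groups and takes the tag to act alike in both, and in DMSO the V libraries, at 2.77 CPM each, lay within the VM range of 1.45 to 4.57 CPM. SMARCA4 was also lower in the VM than in the V libraries of siSMARCA4, and its part in the split was not tested. In 4OHT siNT the summed provirus separated by siRNA number, at 42.8 to 62.1 CPM for number 2 and 66.5 to 82.3 CPM for number 4. The VM fit does not account for the number.

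Within VM libraries, 4 of the tested rows were lower in siSMARCA4 and 0 higher, where 1.87% of 13881 loci were lower and 444 loci were higher. Besides the internal region these were the LTR ahead of it, at -1.93 (SE 0.41, edgeR adjusted p 0.0219), HERVH-int 4:87922255 at -2.08 (SE 0.52, edgeR adjusted p 0.0452) and HERVH-int 9:21487737 at -1.76 (SE 0.28, edgeR adjusted p 0.00868). HERVH-int 4:87922255 had at most 0.0978 CPM in the VM libraries of siSMARCA4 and 0.0410 CPM in DMSO. It passed the filter through 4OHT siNT alone, the group where it is high, so its call is a description. The chromosome 9 row had 0.939, 0.757 and 0.940 CPM in the VM libraries and 1.20, 4.09 and 2.46 CPM in the V libraries of siSMARCA4. All 3 VM values lay below the lowest of 4OHT siNT, 1.92 CPM. MIR31HG showed the same order, with 17.2 to 19.7 CPM in VM and 31.3 to 41.9 CPM in V libraries against 30.1 to 46.96 CPM in 4OHT siNT, and over all libraries it did not pass (log2 -0.40, SE 0.24, edgeR adjusted p 0.252). With the tag as a term 2 rows were lower, where 246 of 13026 loci were lower and 484 higher. They were HERVH-int 4:87922255 at -2.17 (SE 0.58, edgeR adjusted p 0.0376) and HERVH-int 9:21487737 at -1.53 (SE 0.37, edgeR adjusted p 0.0238). The first again needed the 4OHT siNT libraries to pass the filter. The chromosome 9 LTR split in the same way, with 0.981 to 1.26 CPM in V and 0.580 to 0.607 CPM in VM libraries against 0.722 to 1.21 CPM in siNT. Its log2 difference was -0.18 over all libraries (SE 0.29, edgeR adjusted p 0.780) and -0.74 in VM libraries (SE 0.29, edgeR adjusted p 0.151). Without the siSMARCA4 library 4-2V, HERVH-int 9:21487737 stood at -1.25 (edgeR adjusted p 0.0327) and the LTR ahead on chromosome 1 at -1.38 (edgeR adjusted p 0.0337).

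**Figure D4:**
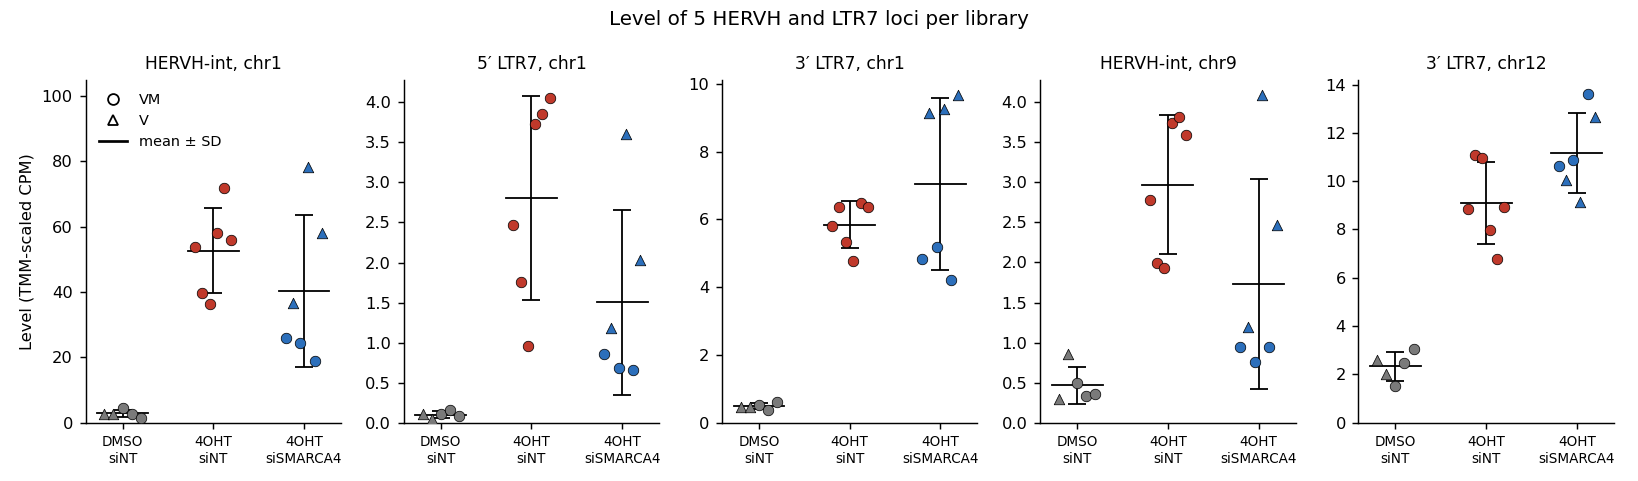
Level per library in TMM-scaled CPM of 5 rows, the internal region and both LTRs of the chromosome 1 provirus, the chromosome 9 internal region and the chromosome 12 LTR, with circles for VM and triangles for V libraries and bars for mean and SD. At the chromosome 1 internal region the siSMARCA4 circles stand at 19.0 to 25.8 CPM and the triangles at 36.8 to 78.3 CPM, while at the chromosome 12 LTR both lie within 9.16 to 13.6 CPM.

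The LTR behind the chromosome 1 internal region also split by tag. It had 9.14, 9.26 and 9.66 CPM in the V libraries and 4.83, 5.20 and 4.20 CPM in the VM libraries of siSMARCA4, against 4.76 to 6.47 CPM in 4OHT siNT. The V libraries were all above siNT and the VM libraries straddled its lower end. Its log2 difference was 0.27 over all libraries (SE 0.19, edgeR adjusted p 0.438) and -0.30 in VM libraries (SE 0.15, edgeR adjusted p 0.264). Counts on this LTR were 11.1% of those on the internal region in 4OHT siNT, with libraries from 8.19% to 16.0%, and 16.9% in siSMARCA4, with libraries from 11.8% to 24.8%.

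The chromosome 12 LTR did not split in this way. Its V libraries had 10.1, 9.16 and 12.65 CPM and its VM libraries 10.6, 10.9 and 13.6 CPM, which overlapped. It had 9.16, 10.8 and 13.6 CPM as lowest, median and highest of siSMARCA4 and 6.78, 8.89 and 11.1 CPM in siNT. The groups overlapped, and the log2 difference was 0.30 (SE 0.15, edgeR adjusted p 0.261). LNCOG, its host, did pass in the gene table, at 35.2 ± 5.57 CPM (SD, n = 6) against 26.6 ± 3.15 CPM (n = 6), a log2 change of 0.40 (SE 0.11, edgeR adjusted p 0.0153). The row with the largest log2 difference upwards was HERVH-int 19:9364156-9366007 at 1.30 (SE 0.59, edgeR adjusted p 0.196), with 23 counts in siNT and 64 in siSMARCA4. Downwards it was HERVH-int 4:87922255 at -0.90 (SE 0.51, edgeR adjusted p 0.312). The chromosome 19 row needed the siSMARCA4 libraries to pass the filter and the chromosome 4 row those of 4OHT siNT, so both values are a description.

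Outside the chromosome 1 provirus the sum of members was 27.0 ± 1.63 CPM in siNT and 30.0 ± 3.45 CPM in siSMARCA4 (SD, n = 6 each), a log2 difference of 0.15 (exact permutation p 0.0866). The rows without a test of their own summed to 8.99 ± 1.47 and 11.1 ± 1.54 CPM, a log2 difference of 0.31 (exact permutation p 0.0368). Here the V libraries of siSMARCA4, at 10.8, 12.8 and 11.7 CPM, and its VM libraries, at 10.6, 12.3 and 8.50 CPM, overlapped. The summed counts of sparse repeat loci far from genes were also higher in every siSMARCA4 library, and their part in this difference was not tested. In VM libraries alone the log2 difference of the sum without the provirus was 0.05 (exact permutation p 0.464). These sums without the provirus and of rows without a test were chosen after the data had been seen.

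By subfamily, sums over all copies were tested among 1026 subfamilies. In senescence 2 of the 5 subfamilies were higher and 0 lower, where 10.1% of subfamilies were higher and 6.73% lower. HERVH-int rose from 7.22 ± 1.47 CPM (SD, n = 5) to 64.3 ± 14.7 CPM (n = 6), a log2 change of 3.15 (SE 0.31, edgeR adjusted p 6.28e-07), with 80.6% of its counts on the chromosome 1 internal region. LTR7 rose from 6.28 ± 1.09 to 23.5 ± 1.58 CPM, by 1.91 (log2, SE 0.12, edgeR adjusted p 1.04e-09), with 40.1% of its counts on the chromosome 12 LTR. Of the 17555 LTR7 counts, a further 4324 and 1437 were on the LTRs behind and ahead of the chromosome 1 internal region. The rises of these subfamilies thus largely repeat those of single rows given above. LTR7B changed by 0.14 (log2, SE 0.16, edgeR adjusted p 0.635), LTR7C by 0.46 (log2, SE 0.22, edgeR adjusted p 0.180, and 0.70 with adjusted p 0.0272 without DMSO 4-3VM) and LTR7Y by -0.48 (SE 0.37, edgeR adjusted p 0.449).

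After SMARCA4 knockdown it was the minor subfamilies that were called, 2 of 5 higher and 0 lower, where 19.4% of subfamilies were higher and 0.975% lower. LTR7B had 0.889, 1.31 and 1.62 CPM as lowest, median and highest of siNT and 1.59, 1.76 and 2.30 CPM of siSMARCA4. The groups barely overlapped, and the log2 change was 0.53 (SE 0.15, edgeR adjusted p 0.0223). LTR7Y had 0.0534, 0.149 and 0.285 CPM in siNT and 0.237, 0.307 and 0.512 CPM in siSMARCA4, overlapping, with a log2 change of 1.08 (SE 0.35, edgeR adjusted p 0.0333). This subfamily needed the siSMARCA4 libraries, the group where it is high, to pass the filter. Its call is therefore a description, also within the count of 2 of 5. The LTR7Y call was lost on leaving out any one of siNT 2-1VM, 2-2VM, 4-2VM, 2-3VM or 4-3VM or of siSMARCA4 2-3V, 2-3VM or 4-2V (edgeR adjusted p up to 0.0876, without 4-2V), and the LTR7B call was kept in all 17 such fits. The median over all subfamilies was 0.25. Both calls were lost with scaling on repeats, at 0.30 for LTR7B and 0.86 for LTR7Y (edgeR adjusted p 0.318 and 0.159), with the sparse counts as a covariate, at 0.64 and 0.86 (edgeR adjusted p 0.259 and 0.393), and with VM libraries only, at 0.48 and 0.88 (edgeR adjusted p 0.129 and 0.177). The sparse counts were higher in every siSMARCA4 library than in any of 4OHT siNT. With them as a covariate, 7 loci were called higher and 8 lower of 13026, so a call lost under it decides nothing. With the tag as a covariate over all libraries both calls were lost too, at 0.45 for LTR7B and 0.92 for LTR7Y (edgeR adjusted p 0.112 and 0.156). The reason for these losses was not tested.

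The LTR7B signal was spread thinly. Its most counted row, LTR7B 6:3468940-3469394, held 93 counts or 7.10% of the subfamily, whereas LTR7C 17:64764753 held 33.6% of LTR7C and the LTR7Y row with the most counts, antisense to an exon of MED15, 32.6% of LTR7Y. HERVH-int had a log2 difference of -0.35 after knockdown (SE 0.26, edgeR adjusted p 0.359), which was -1.07 in VM libraries only (edgeR adjusted p 0.00833). LTR7 had 0.18 (SE 0.11, edgeR adjusted p 0.243), a sign that turned to -0.06 when scaling used repeats alone. It too split by tag, with 28.1, 29.0 and 32.8 CPM in the V libraries, all above the siNT range of 22.0 to 25.5 CPM, and 22.1, 23.8 and 24.4 CPM in the VM libraries, all within it, and in VM libraries only the difference was 0.0056 (edgeR adjusted p 0.985). LTR7C had 0.29 (SE 0.21, edgeR adjusted p 0.347), and 0.13 in VM libraries (edgeR adjusted p 0.778).

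Genes that other work ties to LTR7 were looked at as a list. Of 11 transcripts that start in or carry LTR7 sequence in other cells, such as ESRG and LINC-ROR of pluripotent cells, 3 were expressed enough to test. In senescence 0 were higher and 2 lower, where 22.0% of 19473 genes were higher and 32.2% lower: RPL39L, a ribosomal protein paralogue, fell by 2.72 (log2, SE 0.23, edgeR adjusted p 7.88e-09) and HHLA3 by 0.80 (log2, SE 0.10, edgeR adjusted p 1.59e-06). After knockdown 1 was higher and 0 lower, where 10.5% of genes were higher and 12.9% lower: HHLA3 rose by 0.41 (log2, SE 0.10, edgeR adjusted p 0.00507). The median log2 change of the 3 was -0.80 in senescence, beside -0.09 over all genes, and 0.41 after knockdown, beside -0.02.

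Of 26 activators and silencers linked to LTR7 and HERVH, 20 were tested, with 2 higher and 11 lower in senescence, where 22.0% of genes were higher and 32.2% lower. Their median log2 change was -0.32, beside -0.09 over all genes. Among activators, KLF4, a transcription factor that binds LTR7 in pluripotent cells, fell by 2.60 (log2, SE 0.18, edgeR adjusted p 3.31e-10), from 25.4 to 4.17 CPM. Among silencers, CHAF1B, a subunit of the histone chaperone CAF-1, fell by 3.57 (log2, SE 0.15, edgeR adjusted p 3.05e-13) and UHRF1, which guides maintenance DNA methylation, by 1.59 (log2, SE 0.11, edgeR adjusted p 5.77e-10). DNMT1, the maintenance DNA methyltransferase, fell by 0.35 (log2, SE 0.09, edgeR adjusted p 0.00335). DAXX, a histone H3.3 chaperone, rose by 0.48 (log2, SE 0.08, edgeR adjusted p 3.09e-05) and MORC2, which works with the HUSH silencing complex, by 0.41 (log2, SE 0.09, edgeR adjusted p 0.00108). TRIM28 had a log2 difference of -0.13 and SETDB1, the histone methyltransferase it recruits, of -0.03, neither called.

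After knockdown 3 of the 20 were higher and 2 lower, where 10.5% of genes were higher and 12.9% lower, with a median of -0.02, beside -0.02 over all genes. KLF4 rose by 0.78 (log2, SE 0.17, edgeR adjusted p 0.00270), CHAF1B by 0.63 (log2, SE 0.14, edgeR adjusted p 0.00337) and the KRAB zinc finger gene ZNF90 by 0.56 (log2, SE 0.19, edgeR adjusted p 0.0383). DNMT1 fell by 0.26 (log2, SE 0.09, edgeR adjusted p 0.0413) and DNMT3A by 0.34 (log2, SE 0.11, edgeR adjusted p 0.0353).

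The labelled cell type was checked by its markers. Summed over 10 fibroblast markers such as COL1A1 and VIM the level was 23744 to 29426 CPM in DMSO, 13148 to 17623 CPM in 4OHT siNT and 7604 to 10713 CPM in siSMARCA4. Of these markers 1 was higher and 7 lower in senescence, where 22.0% of genes were higher and 32.2% lower, and 0 were higher and 7 lower after knockdown, where 10.5% and 12.9% of genes were. The 6 pluripotent stem cell markers, POU5F1 and NANOG among them, summed to at most 0.407 CPM in any library, and 0 of them had enough counts to test. Markers of epithelial cells summed to at most 1.33 CPM, of blood cells to at most 0.356 CPM and of endothelial cells to 0.819 to 1.94 CPM in DMSO, 3.40 to 5.51 CPM in 4OHT siNT and 1.72 to 4.13 CPM in siSMARCA4. The endothelial sum moved with senescence, and its part in the HERVH result was not tested.

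Short motifs were counted in the LTRs as a description. The AP-1 motif TGANTCA, searched on both strands, was in 3.83% of the 3163 LTR rows of 350 to 500 bp, in 6 of the 112 such rows with 10 or more counts and in none of the tested LTRs. The octamer ATGCAAAT, also on both strands, was in 0.190% of the rows of this length and in none of the tested LTRs.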

How the data were processed

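RNA sequencing was poly(A)-selected, stranded and paired-end, with 17 libraries. The authors deposited expected counts, 1 table per library of estimated read pairs per gene and per repeat locus, not normalized and written as whole numbers. They trimmed reads with cutadapt 4.7, aligned them to GRCh38 with HISAT2 2.2.1 (versions from the submitters' processing notes), kept up to 100 alignments per pair and counted with TElocal, which shares pairs among their positions by maximum likelihood, so near-identical copies can exchange counts.

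Genes and repeat loci with 10 or more counts were filtered by edgeR's filterByExpr for the 3 groups at a minimum count of 10 and total of 15, and those that passed were scaled by TMM (factors 0.948 to 1.05) and fitted by the edgeR 4.0.16 quasi-likelihood test in R 4.3.3 with 1 term per group over all libraries. Adjusted p-values are Benjamini-Hochberg values over 13026 repeat loci, 1026 subfamily sums in a second table, or 19473 genes, and a call is an adjusted p under 0.05. Summed levels were compared by exact 2-sided permutation of log2 CPM. Library totals averaged 53.0 ± 6.41 M counts (SD, n = 17). Intervals cover counting error only. Places came from GENCODE on the same build, a later annotation than the authors', and element strand and identities from blastn 2.17.0. Rows in the tables were counted from 1: 536 of 2512 LTR rows began with TG and ended with CA as stated, and 0 when moved by 1 or 2 bp.

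The members and gene lists were chosen with earlier results of these data known. The rule named the 5 called rows with the largest non-overlapping change in each direction, the 10 most abundant rows and the highest of each subfamily, with their insertions, host genes and the 2 gene lists. The other tested rows and their nearest genes were added after their values were seen. Alternatives were DESeq2 1.42.0, other scalings and filters, VM libraries or 1 siRNA number only, covariates, a replicate block and leaving out each library. The sequences of the LTRs are not reported here.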

Additional observations from a re-analysis of the deposited data

Results flagged for a closer look

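In 9 of 87 groups of libraries examined, the highest library stood far from the next one by Dixon's criterion, which chance alone meets in about 1 group in 20. At 4 of them a single DMSO library held 1 to 3 counts and the others 0, which meets the criterion by construction, so that rate does not apply to them. HERVH-int 1:65644018-65646858 had 0.0178 CPM in DMSO 2-2VM and LTR7 1:233683449-233683880 had 0.0534 CPM in the same library. HERVH-int 11:122829043-122832414 had 0.0177 CPM in DMSO 4-3VM and HERVH-int 4:87922255-87925995 had 0.0410 CPM in DMSO 2-2V. HERVH-int 22:32503188-32508070 reached 0.184 CPM in DMSO 2-2V. LTR7 1:244350717-244351134 reached 0.760 CPM in 4OHT siNT 2-3VM, where the next library had 0.481 CPM.

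The siSMARCA4 library 4-2V was the highest of its group in the other 3 cases. It had 1.17 CPM at HERVH-int 12:76292129-76297372, where the next library had 0.446 CPM, and 0.477 CPM at HERVH-int 4:87922255-87925995, where the next had 0.163 CPM. Summed over LTR7Y it had 0.512 CPM, where the next had 0.338 CPM.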

How the results depend on the processing

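After knockdown, 0 rows were called with all libraries, 4 with VM libraries only, 2 with the V or VM tag as a covariate and 0 to 2 when 1 library was left out. The 17 rows called in senescence became 32 without the expression filter and 11 with siRNA number 2 only. The 2 subfamilies called after knockdown became 0 with scaling on repeats, 1 with VM libraries only (HERVH-int, lower), 0 with siRNA number 2 only, 0 with siRNA number 4 only, 0 with the tag and 0 with the sparse counts as a covariate, and 1 to 2 when 1 library was left out. The summed difference after knockdown, -0.22, was -0.63 with VM libraries only, but 0.10 without the most counted row, 0.15 without its insertion, 0.31 over rows without a test and 0.045 without the insertion in VM libraries only. The summed difference in senescence, 2.43, was 2.23 with siRNA number 2 only and 2.63 with number 4 only (exact permutation p 0.1, the smallest possible in both), and 0.15 over rows without a test. The causes were not tested.

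Signs turned after knockdown with the sparse counts as a covariate for HERVH-int 12:76292129 (0.29), HERVH-int 1:64350439 (0.46), HERVH-int 1:65644018 (0.17), HERVH-int 1:68386440 (0.26), LTR7 12:76291720 (-0.031) and LTR7 1:68386004 (0.0064). They turned with siRNA number 4 only for HERVH-int 22:32503188 (-0.37) and LTR7 1:233683449 (0.040), for LTR7 1:68391563 with VM libraries only (-0.30) and with the tag as a covariate (-0.10), and for the LTR7 subfamily with scaling on repeats (-0.060). In senescence they turned for HERVH-int 19:9364156 with siRNA number 4 only (1.20), the tag (0.56) and the sparse counts (0.15), for HERVH-int 22:32503188 (-0.79) and LTR7B (-0.22) with number 2 only and for LTR7 19:47296710 with VM libraries only (0.058). Over single libraries left out, the log2 values ranged from -0.43 to 0.23 for HERVH-int 1:64350439 and from -0.39 to 0.12 for LTR7 1:233683449 after knockdown, and from -0.48 to 0.71 for HERVH-int 19:9364156 and from -0.29 to 0.13 for LTR7 19:47296710 in senescence. None of these was a call, and HERVH-int 19:9364156 passed the filter in 13 of the 17 such fits. The sparse counts were higher in every siSMARCA4 library than in any of 4OHT siNT, so turns after knockdown under that covariate decide nothing.

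With a replicate block, 1 subfamily, LTR7B, was called after knockdown and the summed differences were -0.24 after knockdown and 2.44 in senescence. Replicate numbers did not pair the libraries: deviations of same-numbered libraries of siNT and siSMARCA4 correlated at 0.05, -0.10 and 0.30. Scaling on repeats moved the median of all tested loci from 0.16 to 0.00 in senescence and from 0.14 to -0.01 after knockdown, and the loci called after knockdown from 568 higher and 234 lower to 285 and 328. All but the 21 tested rows had too few counts to pass the filter, and the knockdown effect outside senescence was not measured.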
